A study of Mus musculus with 8 samples.

Results

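A set of 10 innate immune genes was followed in whole mouse kidney after feeding with cinacalcet hydrochloride. Cinacalcet is a calcimimetic, a drug that makes the calcium-sensing receptor more responsive to calcium. They are the NOD-like receptor genes Nod2, Nod1 and Nlrp3, the Toll-like receptor genes Tlr1, Tlr2, Tlr4, Tlr3, Tlr7 and Tlr9, and the adaptor gene Myd88. These genes, 10 of 20657 named on the array, were the listed symbols to which the RefSeq accessions of 12 non-control probes map, and they were assembled to ask whether a low Nod2 signal with cinacalcet was shared by other sensors of its kind. The set was thus chosen by the measured Nod2 signal on these same arrays, lower with cinacalcet than in controls, and that difference is given below as a description with no test.

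The tested mice received cinacalcet, worded in the labels as 1 mg per g body weight, for 5 days, and the control mice received standard chow. All mice are labelled male and 12 weeks old, no strain is given in the labels, and no allele or transgene is recorded. There were 4 kidney RNA samples per group, each hybridised with Cy3 to 1 one-colour Agilent array. The labels number the samples and do not say whether each is a separate animal. The p-values below thus measure the spread between these samples, which may be technical.

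NOD-like and Toll-like receptors are germline-encoded sensors of microbial molecules, and kidney cells as well as the resident macrophages of the kidney are known to use them. Nod1 and Nod2 sit in the cytosol, bind fragments of bacterial peptidoglycan and signal through the kinase Ripk2 to NF-kappaB. Toll-like receptors sit in the cell surface or in endosomes, and most of them signal through Myd88 to the same transcription factor.

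Values are processed spot intensities as log2 relative to the 75th percentile of their own array, so that a value of 0 is an intensity at that percentile. They compare arrays for 1 probe, and not the abundance of different genes. The 75th percentile itself was 202.9 to 257.1 intensity units, and 51.8% to 58.0% of spots on an array were well above background. The lowest signal that counted as well above background was 7.33 to 12.1 intensity units, or -4.99 to -4.21 on the log2 scale. Of the 8 arrays 3 stood apart from their labels. Cinacalcet 2, cinacalcet 3 and control 4 had no signal well above background for any of 4 Y-linked genes (Ddx3y, Eif2s3y, Kdm5d and Uty), and the X-inactivation transcript Xist was at 0.46 to 0.95, against -6.99 to -4.22 on the other 5 arrays. Values without these 3 arrays are given for the sensor genes and for the calls among their pathway and marker genes. All 7 kidney markers (Lrp2, Slc34a1, Umod, Slc12a1, Slc12a3, Aqp2 and Nphs1) were measured in both groups, and none of the 7 passed the test between them. Their summed linear level was 1013 to 1133 with cinacalcet and 1036 to 1092 in controls, in units of the 75th percentile. Umod made up 41.8% of it. This sum and the sums below weigh bright probes most, so they are not the level of a cell type.

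Nod2, the cytosolic sensor of muramyl dipeptide, had a lower signal on each cinacalcet array than on any control array. Its intensity was 18.5, 6.09, 12.9 and 14.8 on cinacalcet arrays 1 to 4, against 68.1, 45.4, 70.2 and 27.8 on control arrays 1 to 4. On the log2 scale these were -3.75, -5.29, -4.29 and -3.98 with cinacalcet and -1.92, -2.28, -1.69 and -2.87 in controls. The means were -4.33 ± 0.68 with cinacalcet and -2.19 ± 0.51 in controls (SD, n = 4 each), a log2 difference of -2.14, or 4.40-fold lower. The groups did not overlap. Nod2 was measured close to the detection floor with cinacalcet, where cinacalcet 1 and 4 were well above background and cinacalcet 2 and 3 were not, while all 4 controls were. With normexp background correction, which compresses dim signals, the log2 difference was -0.78.

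Nod2 values were also taken apart by Y-linked signal, as a description. On the 5 arrays with such signal Nod2 averaged -3.86 over 2 cinacalcet arrays and -1.96 over 3 control arrays, a difference of -1.90. On the 3 arrays without it the 2 cinacalcet arrays averaged -4.79 and the 1 control array was at -2.87, a difference of -1.92. These 2 cinacalcet arrays are the ones on which Nod2 was not well above background, so that difference is not exact. Since the Nod2 groups did not overlap over all arrays, they could not overlap within either kind of array, so the split is no further check.

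Nod1, the sensor of peptidoglycan fragments that contain diaminopimelic acid and the closest relative of Nod2 among these genes, did not share that difference. It was at 2.01, 1.94, 2.05 and 2.09 on the cinacalcet arrays and at 1.99, 1.93, 1.88 and 2.10 on the control arrays, and the groups overlapped throughout. The means were 2.02 ± 0.06 with cinacalcet and 1.98 ± 0.09 in controls, a log2 fold change of 0.04 (SE 0.07, 95% interval -0.12 to 0.21; limma adjusted p = 0.727). The Nod2 difference on the same scale was -2.14. With normexp Nod1 was at 0.02 and Nod2 at -0.78. The Nod2 difference chose the set, and the 2 genes were not tested against each other. On the 5 arrays with Y-linked signal the difference was 0.12.

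Nlrp3, the sensor subunit of an inflammasome that activates caspase 1, was at the limit of detection and was not tested. Its brighter probe was at -5.40, -4.72, -4.79 and -4.60 with cinacalcet and at -5.09, -5.22, -6.63 and -6.11 in controls. It was well above background on 1 array of 8, cinacalcet 4, so no fold change is given. Its dimmer probe was above background on none, at -7.01 to -5.89 with cinacalcet and -6.45 to -5.37 in controls.

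The promoters of 4 of these genes are shown to place the genes whose groups did not overlap, Nod2 and Tlr1, beside their nearest partners here, Nod1 and Tlr2. Each is the 250 bases before the RefSeq start, 5′ to 3′ on the gene's strand, from the upstream-most start where the table lists 2 (Nod1 and Tlr1). Capitals mark matches on either strand to the GC box GGGCGG, the PU.1 core GAGGAA, or the NF-kappaB consensus. PU.1 is a transcription factor of myeloid cells. Coordinates are of build GRCm38.p6, which is not the build of the array's own annotation, and they place these windows and not the probes. Nod2 lies on the plus strand at chr8:88647097-88647346, Nod1 on the minus strand at chr6:54972613-54972862, Tlr1 on the minus strand at chr5:64933559-64933808 and Tlr2 on the minus strand at chr3:83841609-83841858.
Nod2: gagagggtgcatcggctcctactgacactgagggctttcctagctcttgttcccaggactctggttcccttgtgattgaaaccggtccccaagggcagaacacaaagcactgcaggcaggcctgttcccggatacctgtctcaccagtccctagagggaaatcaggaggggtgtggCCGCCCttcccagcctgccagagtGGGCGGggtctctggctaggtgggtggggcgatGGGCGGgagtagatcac
Nod1: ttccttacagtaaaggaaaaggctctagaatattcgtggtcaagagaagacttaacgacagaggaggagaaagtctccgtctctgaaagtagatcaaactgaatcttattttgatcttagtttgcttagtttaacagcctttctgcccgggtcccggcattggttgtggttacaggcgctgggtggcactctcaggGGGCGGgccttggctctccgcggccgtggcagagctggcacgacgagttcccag
Tlr1: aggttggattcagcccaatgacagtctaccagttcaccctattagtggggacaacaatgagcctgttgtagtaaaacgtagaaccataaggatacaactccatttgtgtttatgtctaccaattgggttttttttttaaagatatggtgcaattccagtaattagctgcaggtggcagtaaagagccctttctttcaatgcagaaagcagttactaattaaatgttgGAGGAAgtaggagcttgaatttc
Tlr2: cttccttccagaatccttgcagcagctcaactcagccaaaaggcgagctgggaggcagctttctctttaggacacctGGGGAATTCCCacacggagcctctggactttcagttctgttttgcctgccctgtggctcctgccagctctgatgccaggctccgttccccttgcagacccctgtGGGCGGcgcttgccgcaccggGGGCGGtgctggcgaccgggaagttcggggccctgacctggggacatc
The Nod2 window held 3 GC boxes and the Nod1 window 1, and neither held the NF-kappaB consensus. The Tlr1 window held 1 PU.1 core and no GC box. The Tlr2 window held 2 GC boxes and 3 matches to the NF-kappaB consensus, which overlap one another in 1 stretch. Among the members not shown, Tlr9 also held 1 PU.1 core, and it did not fall. Nlrp3 and Tlr3 held 1 NF-kappaB match each and Myd88 held 1 GC box. Of 32851 promoter windows of the same length in the table, 32.7% held a GC box, 23.3% a PU.1 core and 3.90% the NF-kappaB consensus. The fourth motif searched, the core of the interferon-stimulated response element, was held by 2.98% of windows and, of the 8 members in the table, by Myd88. A match is a stretch of letters and not a measured binding site.

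Tlr1, which pairs with Tlr2 to bind triacylated bacterial lipopeptides, had the next lowest difference after Nod2 and lay at the threshold of the test. It was at -5.07, -4.19, -4.03 and -4.42 on the cinacalcet arrays, against -3.30, -3.85, -3.58 and -3.21 on the control arrays. Every cinacalcet value was below every control value, and cinacalcet 3 and control 2 lay closest across the groups. The means were -4.43 ± 0.46 with cinacalcet and -3.49 ± 0.29 in controls, a log2 fold change of -0.94 (SE 0.24, 95% interval -1.49 to -0.39). The limma adjusted p was 0.0506, which does not pass 0.05, and the unadjusted limma p was 0.0041.

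The Tlr1 signal was dim, with intensities of 7.42, 13.1, 15.4 and 10.9 on the cinacalcet arrays and 26.1, 15.3, 18.9 and 21.9 on the control arrays. It was well above background on 3 of 4 cinacalcet arrays and 4 of 4 control arrays. The log2 fold change was -0.25 with normexp background correction (limma adjusted p = 0.0680). A block for Y-linked signal gave a Tlr1 value that passed, at -1.07 (limma adjusted p = 0.0106). On the 5 arrays with such signal it was at -1.17 and did not pass (limma adjusted p = 0.0543). The adjusted p over all alternatives ranged from 0.0106 to 0.236.

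Tlr2, which recognises lipoproteins together with Tlr1 or Tlr6, was at the same level in both groups within their spread. It was at -0.88, -0.67, -1.20 and -0.78 with cinacalcet and at -0.93, -1.03, -0.98 and -0.79 in controls. The means were -0.88 ± 0.23 with cinacalcet and -0.93 ± 0.10 in controls, a log2 fold change of 0.05 (SE 0.12, 95% interval -0.23 to 0.33; limma adjusted p = 0.813). Its probe was spotted 10 times on each array, and the coefficient of variation between spots was 3.91% to 8.56%. The sign of its small estimate changed without cinacalcet 2, to -0.020, and without the 3 arrays that lacked Y-linked signal the estimate was 0.15.

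Tlr4, the receptor for lipopolysaccharide, did not pass, and its values were less spread with cinacalcet than in controls. It was at -2.69, -2.65, -2.60 and -2.66 on the cinacalcet arrays, which lay inside the range of the control arrays at -2.38, -3.08, -2.62 and -2.0003. The means were -2.65 ± 0.04 with cinacalcet and -2.52 ± 0.45 in controls, a log2 fold change of -0.13 (SE 0.20, 95% interval -0.60 to 0.33; limma adjusted p = 0.706). The highest control was control 4, and without it the estimate was 0.042, and without all 3 arrays that lacked Y-linked signal it was 0.015. The Tlr4 probe was spotted 2 times on each array, with a log2 SD between spots of 0.12 to 0.26. That is larger than the SD of 0.04 between the cinacalcet samples, so their closeness is finer than the spots measure.

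Of the receptors in endosomes, which sense nucleic acids, neither of the 2 that could be tested changed past the threshold. Tlr9, the receptor for unmethylated CpG DNA, was at 1.65, 1.66, 1.51 and 1.69 with cinacalcet and at 1.39, 1.52, 1.57 and 1.56 in controls. The means were 1.63 ± 0.08 with cinacalcet and 1.51 ± 0.08 in controls, with overlapping groups and a log2 fold change of 0.11 (SE 0.07, 95% interval -0.05 to 0.28; limma adjusted p = 0.342). Tlr7, the receptor for single-stranded RNA, was at -0.37, -0.42, -0.74 and -0.43 with cinacalcet and at -0.53, -0.15, -0.14 and -0.43 in controls. The means were -0.49 ± 0.17 with cinacalcet and -0.31 ± 0.20 in controls. Its log2 fold change was -0.18 (SE 0.12, 95% interval -0.46 to 0.11; limma adjusted p = 0.379), and a dimmer probe of the gene differed by 0.06 in the opposite direction. Without the 3 arrays that lacked Y-linked signal Tlr9 was at 0.17 and Tlr7 at -0.13 (limma adjusted p of 0.225 and 0.585). Tlr3, the receptor for double-stranded RNA, was well above background on 0 of 8 arrays, at intensities of 2.46 to 5.27 with cinacalcet and 2.73 to 5.83 in controls, and was not tested.

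Myd88, the adaptor that the Toll-like receptors other than Tlr3 use, leaned lower without passing. It was at 0.84, 0.58, 0.71 and 0.92 with cinacalcet and at 1.25, 1.01, 1.00 and 0.75 in controls. The lowest control, control 4, lay among the cinacalcet arrays and the other 3 controls lay above all of them. The means were 0.76 ± 0.15 with cinacalcet and 1.00 ± 0.21 in controls, a log2 fold change of -0.24 (SE 0.12, 95% interval -0.52 to 0.04; limma adjusted p = 0.239). Its probe was spotted 10 times, with a coefficient of variation between usable spots of 2.89% to 5.67%, which is smaller than the spread between the samples. On the 5 arrays with Y-linked signal the difference was -0.21.

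**Figure D1:**
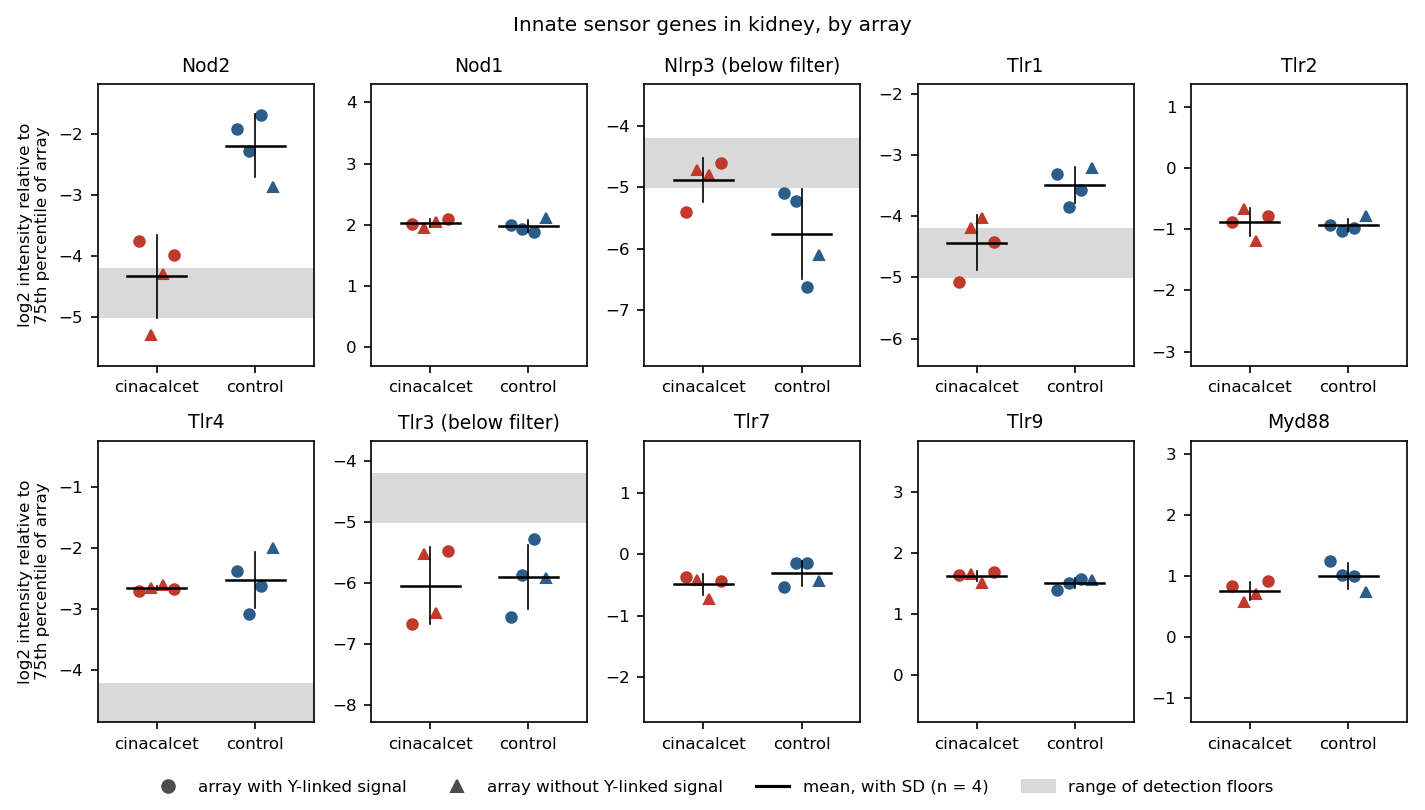
Log2 intensity relative to the array's 75th percentile for each of the 10 genes, with 4 cinacalcet arrays left of 4 control arrays, the mean and SD as lines, and triangles for the 3 arrays without Y-linked signal. Axes differ in position and have the same length for all genes, and the grey band is the range of detection floors, -4.99 to -4.21. The Nod2 and Tlr1 groups do not overlap, the Nlrp3 and Tlr3 values lie in or below the band, and the other genes overlap between groups.

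Across the set, none of the 7 genes tested besides Nod2 was called lower and none higher at an adjusted p under 0.05 in limma. Of all 14209 genes tested, 4.64% were called lower and 3.37% higher, 8.02% in either direction. One of the 7, Tlr1, had an unadjusted p under 0.05, where 27.9% of all genes did. One of the 7, again Tlr1, had groups that did not overlap with cinacalcet lower, where 9.8% of all genes did, and none had such groups with cinacalcet higher, where 8.01% did. Counts this near to the shares over all genes are no result about the set. Their estimates were below 0 for 4 of 7, with a median of -0.13, against -0.03 over all genes tested. Whether the Nod2 difference exceeds that of each other gene was not tested.

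The count of called genes among the 7 depended on Tlr1. It stayed at 0 with each array left out in turn, and also when the analysis kept the 5 arrays with Y-linked signal. With a block for Y-linked signal it was 1, Tlr1, where 10.4% of all genes were called lower. With quantile normalization it was also 1, Tlr1 (limma adjusted p = 0.0383), where 5.52% of all genes were called lower and 4.47% higher. With array weights it was 2, Tlr1 and Myd88 (limma adjusted p of 0.0283 and 0.0280), where 24% of all genes were called lower and 14.2% higher.

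**Figure D2:**
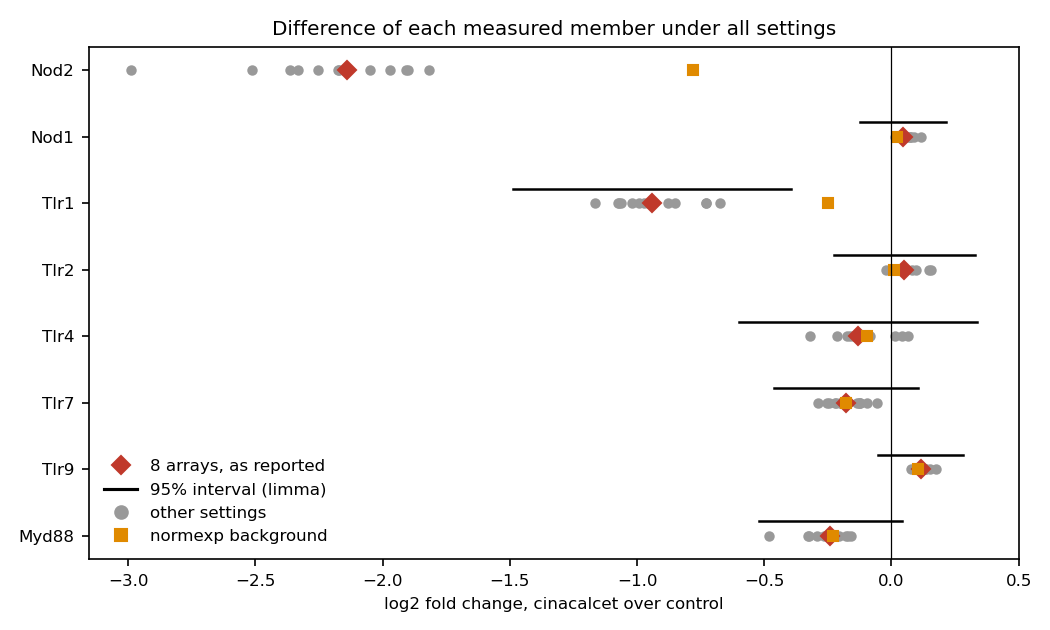
Log2 fold change, cinacalcet over control, of the 8 measured genes. Diamonds are the values on 8 arrays, black lines their 95% intervals from limma (none is drawn for Nod2, whose difference chose the set), squares the normexp background correction and grey points the other settings. Nod2 ran from -2.99 to -0.78 and Tlr1 from -1.17 to -0.25, while the estimates for Nod1, Tlr2, Tlr4, Tlr7, Tlr9 and Myd88 lay between -0.48 and 0.17.

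Genes that work with these sensors were followed from 10 further lists, and some of them fell. Of 102 further genes of the same pathways, 100 were on the array, 75 could be tested, 11 fell (14.7%, against 4.64% of all genes), 1 rose (1.33%, against 3.37% of all genes) and 63 did not pass in limma. Their estimates were below 0 for 55 of 75, with a median of -0.17 against -0.03 over all genes. A block for Y-linked signal gave 20 that fell and 1 that rose, where 10.4% and 6.64% of all genes did. These 20 included all 11. The 5 arrays with such signal gave 8 that fell and 1 that rose, where 5.45% and 2.4% did, but these 8 included 3 of the 11, Tlr12, Ikbkg and Ccl5. The other 8 of the 11, Ly96, Ly86, Hsp90b1, Casp1, Dhx58, Zbp1, Nfkbie and Irf8, were not called there (limma adjusted p of 0.0621 to 0.133), while Nfkbia was (limma adjusted p = 0.0404). The lists were drawn up with earlier results of these data known, so the counts are descriptions of the lists.

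Among partners of the Toll-like receptors, 3 of 8 accessory genes tested and 1 of 3 other receptors fell, where 4.64% of all genes did. In lists this small 1 call is no result about the list. Tlr12, a mouse receptor for profilin of protozoa, was at 0.46, 0.69, 0.72 and 0.39 with cinacalcet, against 1.24, 1.28, 1.72 and 1.14 in controls, a log2 fold change of -0.78 (limma adjusted p = 0.0222). The gap between the groups was wider than the range within the cinacalcet group and narrower than the range within the controls. Ly96, the MD-2 protein that carries lipopolysaccharide to Tlr4, fell to -0.996 ± 0.221 with cinacalcet, against -0.324 ± 0.199 in controls (limma adjusted p = 0.0304). Ly86, the MD-1 protein that pairs with the Toll-like protein Cd180, fell by 1.07 on the log2 scale (limma adjusted p = 0.0382), and by 0.67 with normexp background correction. Hsp90b1, an endoplasmic reticulum chaperone that folds Toll-like receptors, fell by 0.45 (limma adjusted p = 0.0421). The receptor Tlr4 itself did not pass, as given above.

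Genes of the signalling chain below the receptors gave no calls at the level of adaptors and kinases. Of 12 adaptors and kinases tested none passed, and the lowest p belonged to Irak1, a kinase recruited by Myd88, at -0.40 (limma adjusted p = 0.0709), and to Irak3, an inhibitory member of that family, at 0.29 (limma adjusted p = 0.143). Of 9 genes of Nod1 and Nod2 signalling tested none passed. Among them were Slc15a2 and Slc15a3, carriers that bring peptidoglycan fragments into the cytosol, at 0.27 and -0.49 (limma adjusted p of 0.178 and 0.217). Ripk2, the kinase that both Nod proteins use, was below the filter on dim probes and untested. Ripk2 was well above background on 0 of 4 cinacalcet arrays and 2 of 4 control arrays, at -6.06 to -4.91 with cinacalcet and -4.84 to -4.05 in controls.

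Of the NF-kappaB list, 2 of 11 genes tested fell and 1 rose, where 4.64% and 3.37% of all genes did. Nfkbia, the inhibitor that holds NF-kappaB in the cytosol and is itself an NF-kappaB target, was at 4.71, 4.83, 4.64 and 4.87 with cinacalcet, against 4.23, 4.00, 4.24 and 3.89 in controls. It rose by a log2 fold change of 0.67 (limma adjusted p = 0.0133), with groups far apart for their spread. Ikbkg, the regulatory subunit NEMO of the kinase that removes such inhibitors, fell by 0.60 (limma adjusted p = 0.0241). Nfkbie, another inhibitor, fell by 0.31 (limma adjusted p = 0.0319).

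Other cytosolic sensors and their outputs included further genes that fell. Of all genes 4.64% were called lower, and 1 or 2 calls in a list this small are no result about the list. Of 8 sensors of cytosolic nucleic acids tested, Dhx58, a helicase of the RIG-I family, fell by 0.83 and Zbp1, a sensor of Z-form nucleic acid, by 1.72 (limma adjusted p of 0.0223 and 0.0259). Both signals were dim, at intensities of 10.8 to 14.4 with cinacalcet and 17.4 to 26.5 in controls for Dhx58. With normexp background correction Dhx58 was at -0.26 and did not pass (limma adjusted p = 0.0870), and Zbp1 was at -0.64. Of 8 inflammasome genes tested Casp1, the protease that matures interleukin-1 beta, fell by 0.86 (limma adjusted p = 0.0397), and by 0.44 with normexp. Of 7 other NOD-like receptors tested none passed, with Naip2, a sensor of bacterial secretion system proteins, at -0.70 and Nlrc5, an activator of MHC class I genes, at -1.40 (limma adjusted p of 0.0524 and 0.104). The mean over the probes of a gene was smaller for Nlrc5, at -0.77, and likewise for Irak1, at -0.24. Of 5 interferon regulatory factors Irf8, a factor of monocyte and dendritic cell development, fell by 0.69 (limma adjusted p = 0.0299). Of 4 cytokines and enzymes tested Ccl5, a chemokine gene, fell to -0.33 ± 0.51 with cinacalcet, against 1.09 ± 0.31 in controls (limma adjusted p = 0.0228). Tnf, Il6, Il1a, Il10, Cxcl2, Ifnb1 and Ptgs2 were not well above background on any array.

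The pathway calls depended on single arrays. The count of genes that fell was 23 without control 4, 16 without cinacalcet 1, 4 without cinacalcet 4, 2 without control 3, and 0 without control 1, control 2, cinacalcet 2 or cinacalcet 3. The Nfkbia call was lost without control 2 (limma adjusted p = 0.05004) and held in the other 7 of 8 such fits, while the genes that fell passed in 1 to 4 of 8.

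**Figure D3:**
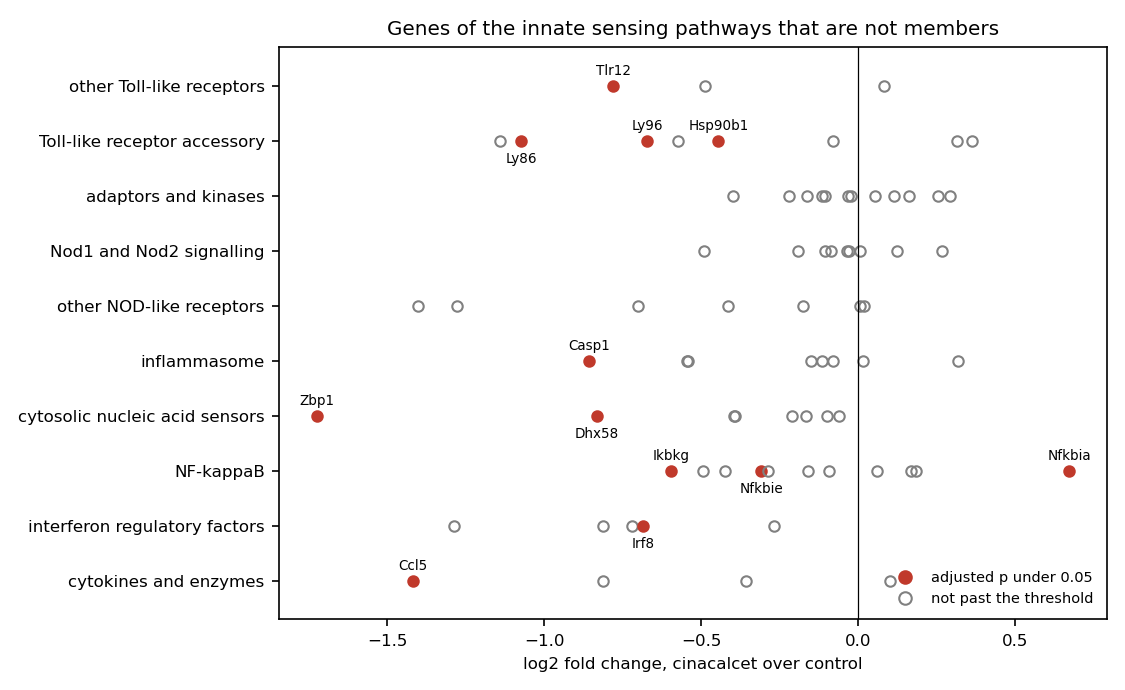
Log2 fold change, cinacalcet over control, of the 75 tested pathway genes that are not among the 10, in 10 lists. Filled points passed an adjusted p of 0.05 in limma and are named, and open points did not pass. Of the filled points 11 lie left of 0 and 1, Nfkbia, lies right of it, and the lists of adaptors and kinases, of Nod1 and Nod2 signalling and of other NOD-like receptors hold none.

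Some markers of macrophages and monocytes, cells known to express Nod2 and Tlr1, were lower with cinacalcet. In a bulk sample fewer cells of a type and less RNA per cell cannot be told apart. Of 10 such markers 9 were on the array, all 9 were tested, and 5 fell and none rose, where 4.64% and 3.37% of all genes did. On the 5 arrays with Y-linked signal 3 of the 9 fell, Cx3cr1, Adgre1 and Csf1r, while Ccr2 and C1qa did not pass (limma adjusted p of 0.0523 and 0.0726). Cx3cr1, the fractalkine receptor of resident macrophages, fell by 1.46 on the log2 scale, Ccr2, the receptor of inflammatory monocytes, by 2.15, Adgre1, the F4/80 antigen, by 1.65, Csf1r, a growth factor receptor of macrophages, by 0.56 and C1qa, a complement subunit, by 0.84 (limma adjusted p of 0.00848, 0.0133, 0.0200, 0.0209 and 0.0355). Ccr2 was well above background on 2 of 4 cinacalcet arrays and on all 4 controls. The controls were thus enough for it to pass the filter on dim probes, and its value is not exact. With normexp background correction the difference was -0.65 for Ccr2 and -0.80 for Adgre1. The mean over the probes of Csf1r was -0.41. With each array left out in turn Cx3cr1 and Ccr2 passed in 8 of 8 fits, Csf1r in 5 (not without cinacalcet 2, control 2 or control 3, adjusted p up to 0.0679) and Adgre1 in 3 (not without cinacalcet 2 or 3 or control 1, 2 or 3, adjusted p up to 0.0656). These fits kept the filter set on all 8 arrays, so they do not check the Ccr2 call against that filter. The summed level of the 9 was 49.0 to 67.2 with cinacalcet and 60.3 to 74.6 in controls, in units of the 75th percentile. Itgam made up 54.9% of that sum and did not pass, at a log2 fold change of 0.15 (limma adjusted p = 0.603). The part of these cells in the Nod2 and Tlr1 values was not tested.

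Markers of other cells did not all move the same way. Of all genes tested 4.64% were called lower and 3.37% higher, and 1 call in a list this small is no result about the list. Of 5 dendritic cell markers tested Itgax, the CD11c gene, fell by 1.19 (limma adjusted p = 0.0134; -0.53 with normexp), Xcr1 was above background on no array, and the sum was 170.5 to 190.6 with cinacalcet and 140.1 to 173.7 in controls, of which Siglech made up 99.7%. Of 5 neutrophil markers tested 3 were called higher. S100a9 rose by 1.81 and S100a8 by 1.58 (limma adjusted p of 0.0127 and 0.0228), and the other, Retnlg, differed by 2.60. The sum was 149.4 to 155.7 with cinacalcet and 114.8 to 150.3 in controls, of which Csf3r made up 98.4%. Retnlg was above background on 1 of 4 control arrays, so that it passed the filter on dim probes through the cinacalcet arrays. Its value is not exact, and its call is a description and no support for a rise. With normexp the differences were 0.48 for Retnlg and 0.92 for S100a8. Both passed in 3 of 8 fits with an array left out, and not without cinacalcet 2 or 3 or control 1, 2 or 3 (adjusted p up to 0.0679 for Retnlg and 0.0730 for S100a8), while S100a9 passed in 8 of 8. The neutrophil genes Cxcr2, Mmp9 and Ngp were above background on none of the 8 arrays. Of 4 lymphocyte markers tested none passed, with a sum of 4.97 to 6.04 with cinacalcet and 5.59 to 7.11 in controls, and the B cell gene Ms4a1 was above background on no array. Of 4 endothelial markers none passed, with a sum of 14.7 to 16.8 with cinacalcet and 14.9 to 19.3 in controls, of which Kdr made up 75.7%. Of 5 fat cell markers Ucp1, which uncouples respiration in brown fat, fell by 5.73 (limma adjusted p = 0.0140), or by 3.04 with normexp. Ucp1 was well above background on 2 of 4 cinacalcet arrays and on all 4 controls. The controls were thus enough for it to pass the filter on dim probes, and its value is not exact. For the 5 fat cell markers the sum was 17.5 to 47.8 with cinacalcet and 35.8 to 113.5 in controls, of which Fabp4 made up 72.0%. Without the 3 arrays that lacked Y-linked signal Itgax, S100a9 and S100a8 also passed (limma adjusted p of 0.00634 to 0.0323). Retnlg and Ucp1 were called there too, with the same limit from the filter. The part of these cells in the values of the sensor genes was not tested.

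The genes whose pattern over the 8 arrays lay closest to Nod2 were found by the root mean square difference of log2 values, each gene centred on its own mean. The 6 closest of 14208 were Gm4952 at 0.37, Etv1, an ETS transcription factor gene, at 0.39, Cxcl10, an interferon-induced chemokine gene, at 0.39, Tyw3, an enzyme of tRNA modification, at 0.39, Afp, the alpha-fetoprotein gene, at 0.40, and Trim63, a ubiquitin ligase gene known from muscle, at 0.40. The median over all genes was 1.19. Nod2 had its lowest value on cinacalcet 2, as did each of these 6 genes. Since Nod2 was chosen for its difference between the groups, genes that differ in the same way rank high by construction, and the measure says nothing of shared control.

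Of the 10 genes, Tlr1 was nearest to Nod2 by this measure at 0.96 and rank 1060, followed by Myd88 at rank 2051, Tlr7 at 4023, Tlr4 at 7785, Nod1 at 8292, Tlr9 at 9523 and Tlr2 at 9672. Tlr12, from the pathway lists, was nearer than Tlr1, at 0.87 and rank 508. The macrophage and dendritic markers Adgre1, Cx3cr1, Itgax and Ccr2 ranked 17, 71, 87 and 115, and Csf1r ranked 1150. Only these markers, all of which fell, were ranked. Estimates were below 0 for 8 of 9 macrophage and monocyte markers and 4 of 5 dendritic cell markers tested. Itgam and Siglech, which were not ranked, had log2 fold changes of 0.15 and 0.21. All these genes share the same 8 arrays and the same scaling.

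**Figure D4:**
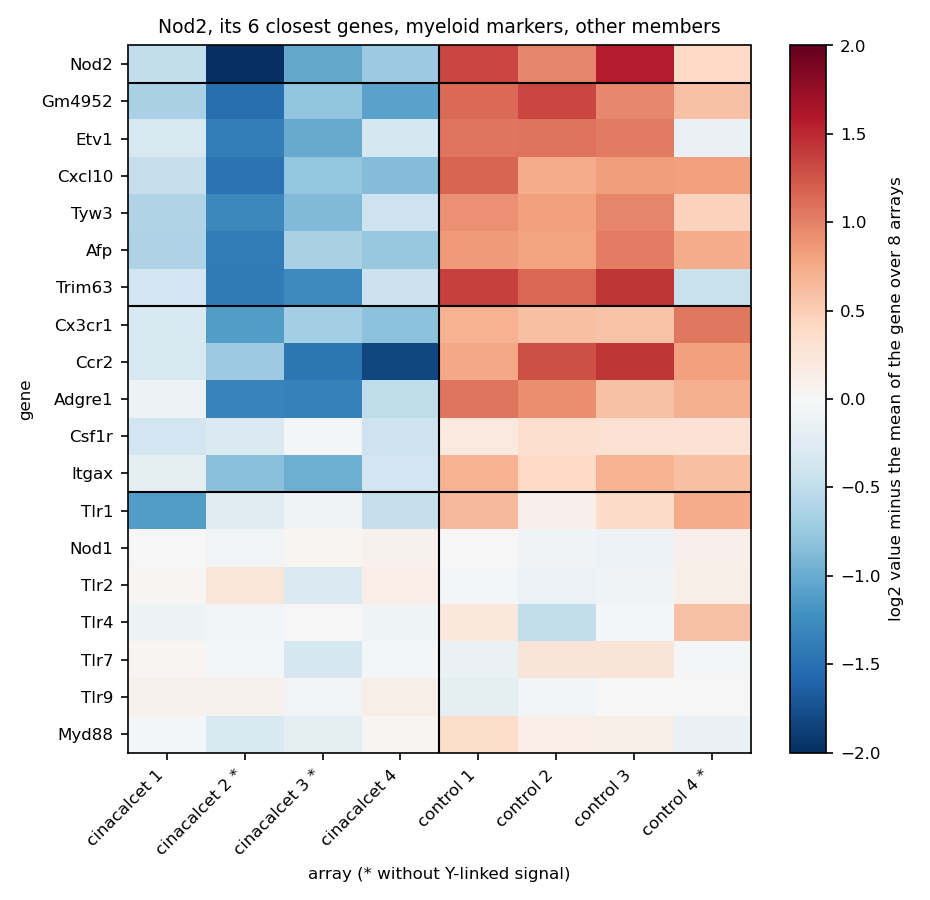
Log2 values of Nod2, its 6 closest genes, myeloid markers picked from those that fell and the other tested sensors on each array, as the difference from the mean of the gene over 8 arrays, with cinacalcet arrays left of control arrays and a star on arrays without Y-linked signal. Blue is below and red above the mean of the gene, on a colour scale from -2 to 2. Nod2, its closest genes and the markers Cx3cr1, Ccr2, Adgre1 and Itgax run from blue to red across the groups, except that Etv1 and Trim63 are below their means on control 4. Nod1, Tlr2, Tlr4, Tlr7 and Tlr9 stay pale.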

How the data were processed

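RNA of 8 mouse kidney samples was hybridised to one-colour Agilent arrays, per the labels. The deposited scanner files hold spot intensity on a linear scale, background-corrected by Agilent Feature Extraction 11.0.1.1, per the file headers; the submitters' processing notes name version 9.5. From 59305 non-control spots per array (55681 probes), outlier spots (118 to 147) were set to missing, and no spot was saturated. Spots of a probe were averaged, log2 was taken and the 75th percentile over non-control spots of each array was subtracted. A probe was kept if 4 of the 8 arrays or more had it well above background. Accessions named 27235 probes through RefSeq (GRCm38.p6) and left 28446 unnamed, and the brightest probe stood for its gene. Groups were compared in limma 3.58.1 (R 4.3.3) without covariates, with Benjamini-Hochberg adjustment over 14209 genes. The fit was tested on simulated data. The members and gene lists were chosen with earlier results of these data known. Named were all members, up to 4 called genes of each list (or 2 where none passed) and the 6 genes closest to Nod2. With 4 arrays per group, their number limits the precision. Other normalizations, filters, blocks and left-out arrays were tried as alternatives. All arrays were on 1 slide with 1 scan, so these could not be tested as batches. The promoter windows are from RefSeq, where 8 of the 10 genes matched (Tlr4 and Tlr7 did not). Among the marker genes, 2 are not reported here.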

Additional observations from a re-analysis of the deposited data

Results flagged for a closer look

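Of 90 groups of 4 arrays checked, over 45 probes of named genes, 6 held an array far from the other 3, where chance gives about 1 in 20. The count is near that share, so it is no result in itself. All 6 were control groups, and in 5 of them the array was control 4, one of the arrays without Y-linked signal. Nlrp3 on its dimmer probe was at -5.37 on control 1, against -6.45 to -6.30 on the other controls, all below background. Irak1 was at 1.83 on control 4, against 2.26 to 2.29 on the others, and Slc15a3 was at -2.30 on control 4, against -2.86 to -2.84. Ccl5 was at 1.55 on control 4, against 0.87 to 0.98, and S100a9 was at 0.37 on control 4, against -0.81 to -0.64. Nphs1, the nephrin gene of podocytes, was at 0.83 on control 4, against 0.20 to 0.30. Among the fits with 1 array left out, Irak1 had its lowest adjusted p in limma without control 4, 0.00751, while Slc15a3 passed in no fit with an array left out.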

How the results depend on the processing

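Over the alternatives that measured it, Nod2 ran from -2.99 with slide column as a block to -0.78 with normexp, and Tlr1 from -1.17 to -0.25. As the groups of Nod2 and of Tlr1 did not overlap, leaving out arrays could not change the sign of either gene. Neither passed a filter at all 8 arrays. Estimates that changed sign were all near 0: Tlr2 was at -0.020 without cinacalcet 2 (-0.020 to 0.156 with single arrays left out), and Tlr4 at 0.065 with array weights, at 0.015 where the analysis kept the 5 arrays with Y-linked signal, and at 0.042 without control 4 (-0.32 to 0.042 with single arrays left out). Irak3 was at -0.0063 with normexp. The cause was not tested. The count of sensor genes called lower besides Nod2 was 0 of 7. It was 1 with quantile normalization, with arrays scaled to the median of detected probes, with the 75th percentile over probes (an alternative chosen after seeing the data) and with Y-linked signal as a block, 2 with array weights, and 0 to 0 with single arrays left out.

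Genes called lower and higher numbered 660 and 479 as reported. They were 211 and 156 without a filter, 3416 and 2022 with array weights, 22 and 12 with slide column as a block, 1473 and 944 with Y-linked signal as a block, and 128 to 2244 and 91 to 1115 with single arrays left out. Pathway genes called lower numbered 4 without a filter, 34 with array weights, 0 with slide column as a block, 20 with Y-linked signal as a block and 0 to 23 with single arrays left out. Those called higher numbered 2 with quantile normalization or the mean over probes, 7 with array weights, 0 with slide column as a block and 0 to 3 with single arrays left out. With the replicate block 0 genes were called lower and 0 higher, also 0 of the pathway genes, but the numbers do not pair the samples, since deviations of same-numbered arrays correlated at 0.34, -0.54, -0.36 and -0.56. Dim signals near the detection floor limit Nod2, Tlr1, Nlrp3, Tlr3 and Ripk2.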
